A study of Caenorhabditis elegans with 14 samples.

Results

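The cuticle collagen genes of *Caenorhabditis elegans* were followed in whole animals of 2 strains, from the first day of adulthood to mid-life under mild oxidative stress. Genes were taken by symbol, as every gene whose name starts with *col-* or *sqt-*, together with the collagens *dpy-2*, *dpy-3*, *dpy-4*, *dpy-5*, *dpy-7*, *dpy-8*, *dpy-9*, *dpy-10*, *dpy-13*, *dpy-14*, *dpy-17*, *rol-6*, *rol-8*, *bli-1* and *bli-2*. Of 174 such genes, 83 had a mean of at least 1 FPKM over the 7 libraries and are described here, out of 13745 genes of any kind that reached this mean. FPKM, the count of sequenced fragments scaled to transcript length and to the size of the library, was summed over the transcripts of a gene. The 83 were 73 of 156 *col-* genes, 9 of 11 *dpy-* genes and 1 of 3 *sqt-* genes, with neither of the *rol-* and neither of the *bli-* genes. Just inside the minimum lay *col-147*, *col-86* and *col-39* at means of 1.13, 1.06 and 1.01 FPKM, and just outside it *col-53*, *col-83* and *sqt-2* at 0.979, 0.853 and 0.760 FPKM. The other 91 genes were low throughout, with no value above 2.00 FPKM in any library and 15 of them reaching 1 FPKM in any.

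All animals carried *spe-9*(*hc88*), a temperature-sensitive mutation that leaves hermaphrodites self-sterile, and were grown at 23.5 °C for 68 hours to young adulthood, called Day 0. The control strain was *spe-9*, while the double mutant, *mir-60;spe-9*, also lacked the *mir-60* gene, which encodes an intestinal microRNA. Day 0 animals were untreated, with 2 libraries per strain from independent preparations, while the Day 7 libraries (1 per strain) and the Day 10 library (double mutant alone) came from animals kept since Day 0 on 5 mM paraquat, which generates superoxide, and 325 µM FUDR, which blocks progeny. Age, paraquat and FUDR therefore changed together between Day 0 and the later days and cannot be told apart. *mir-60* itself was listed at 0 in all 7 libraries of this mRNA preparation, so its level is no check of the strain labels. Depth was alike, with 1 read on a 900-base transcript worth 0.0234 to 0.0294 FPKM.

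The cuticle is the collagen-rich coat that the hypodermis secretes around the animal, built anew at each molt and kept through adult life. Its collagens are short chains that assemble in threes, are trimmed by proteases and cross-linked outside the cell, and are transcribed in waves as each cuticle is made. One group (*dpy-2*, *dpy-3*, *dpy-7*, *dpy-8*, *dpy-9* and *dpy-10*) marks the circumferential furrows, others set body shape, and others such as *col-19* are switched on at the adult stage. Values below are FPKM, with Day 0 libraries in the order *spe-9* replicates 1 and 2, then *mir-60;spe-9* replicates 1 and 2, and later libraries in the order *spe-9* Day 7, *mir-60;spe-9* Day 7, *mir-60;spe-9* Day 10.

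The summed collagen mRNA was at its highest at Day 0, and by Day 7 most of it was gone in both strains. The 83 genes summed to between 31442 and 39798 FPKM in the Day 0 libraries, or 1.93%, 1.93%, 2.32% and 1.98% of all FPKM. In the later libraries they summed to 1038, 1243 and 1430.2 FPKM, or 0.0508%, 0.0685% and 0.0673%. The mean of the 4 Day 0 sums was 27.8 times the mean of the 3 later ones, and the groups did not overlap (exact permutation test of 3 against 4 libraries, two-sided, p = 0.0571, the smallest this design allows). As these are whole animals, fewer cells of a type and less RNA per cell cannot be told apart.

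**Figure D1:**
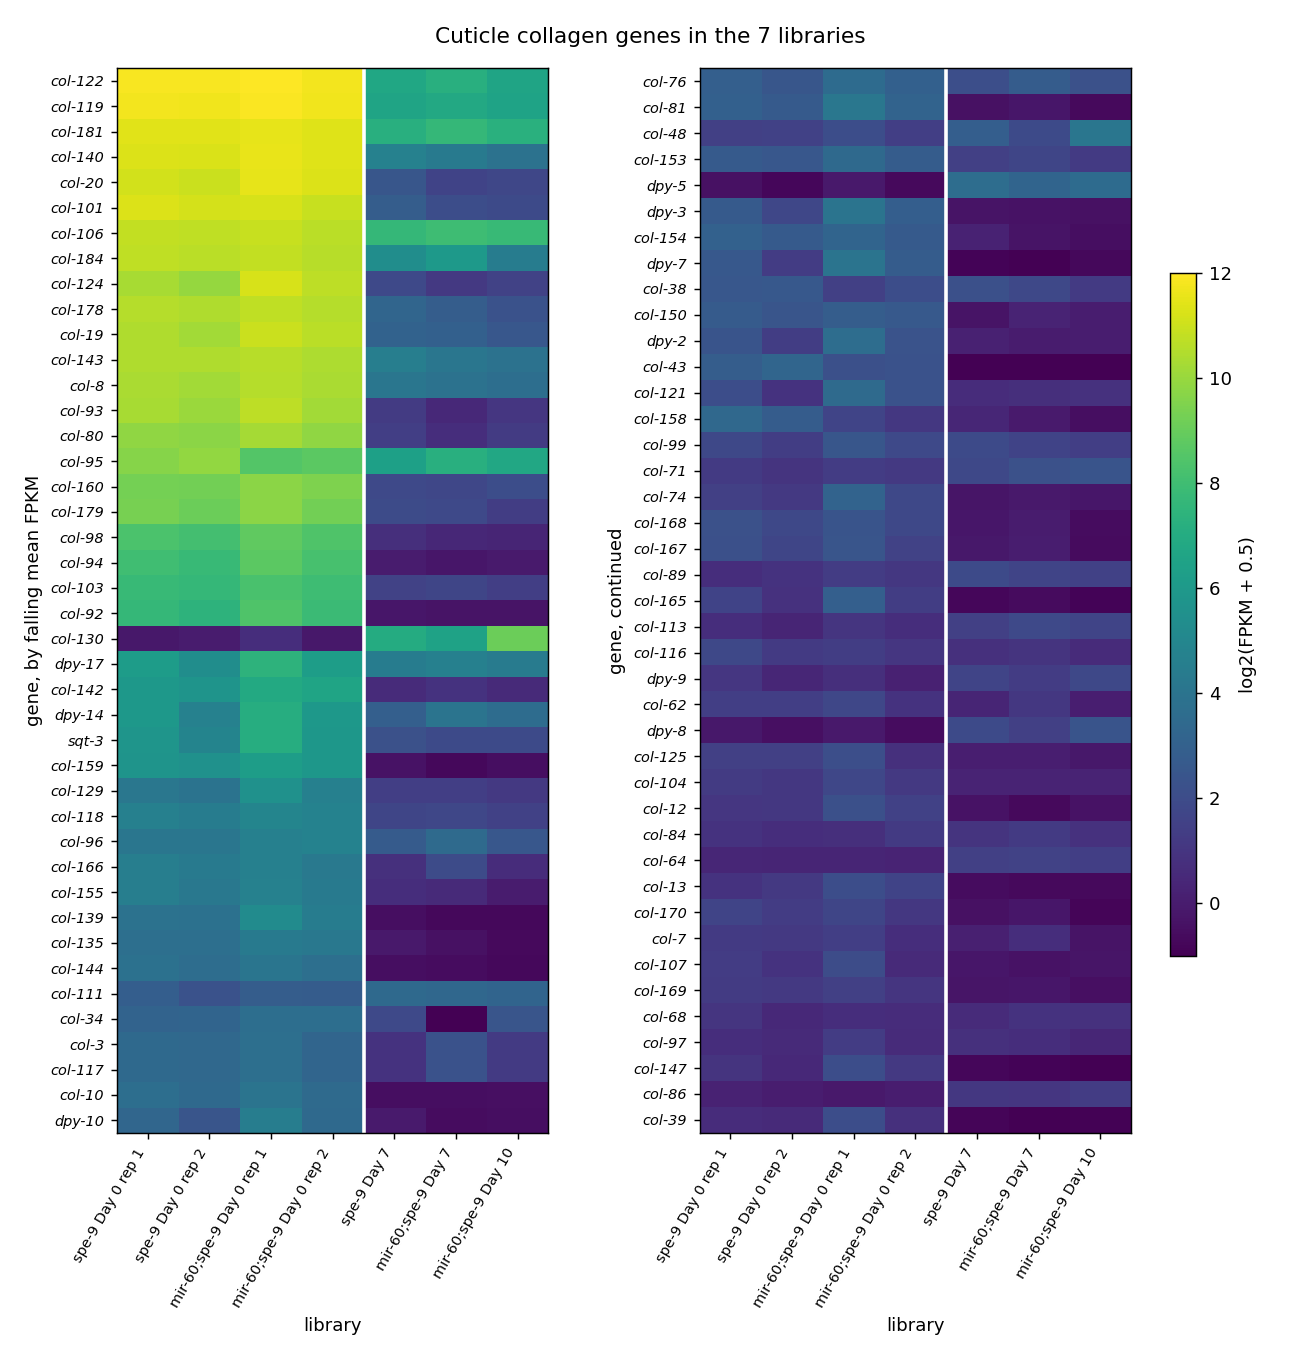
Level of each of the 83 cuticle collagen genes in each of the 7 libraries, as log2(FPKM + 0.5), with genes ordered by falling mean FPKM over 2 columns and the white line between Day 0 and the later days. The upper left block is bright at Day 0 and dark later, and *col-130* runs the other way.

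A few genes made most of the collagen mRNA. The 10 with the highest mean (*col-122*, *col-119*, *col-181*, *col-140*, *col-20*, *col-101*, *col-106*, *col-184*, *col-124* and *col-178*) held between 68.1% and 71.1% of the summed collagen FPKM at Day 0, and 13 genes were at 1000 FPKM or more in every Day 0 library. *col-122*, on chromosome IV from 9563371 to 9564379 (genome build WS220, as are all positions given), led in each of them with 3764, 3703, 4058 and 3501 FPKM. It was at 107, 149 and 95.9 FPKM in the later libraries, a log2 change by Day 7 of -4.89 ± 0.13 (SE, limma adjusted p = 0.000191). *col-119* was next at Day 0 with 3521, 3349, 3919.9 and 3427 FPKM, and stood at 95.6, 116 and 92.6 FPKM later. *col-106* lost least among the 10, from 1812, 1717, 1927 and 1615 FPKM to 198, 248 and 213 FPKM, so that it ranked first at Day 7 with 19.1% and 20.0% of the collagen FPKM of *spe-9* and the double mutant. *col-20* lost most of these, from 2216, 1998, 2958 and 2551 FPKM to 5.01, 2.60 and 2.91 FPKM. The order of the abundant collagens was thus another one at Day 7, with the first gene of each Day 0 library no longer first.

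Day 7 was compared with Day 0 in a limma model of strain and day over 6 libraries. Each strain had 1 library at Day 7, so those of both strains served together as replicates of Day 7. A gene was called if its adjusted p over all genes was under 0.05 and its change over 2-fold. Of the 83 collagens 62 fell and 5 rose, while 16 were not called. Over all 13745 genes tested 10.4% were called lower and 17.6% higher. The median log2 change was -2.42 over the collagens and 0.07 over all genes tested. In 64 of the 83 all 3 later libraries lay below all 4 Day 0 libraries, against 30.0% of all genes, and in 10 all 3 lay above, against 31.3%. Taken strain by strain as single Day 7 libraries, with no test, 63 collagens were over 2-fold lower and 6 over 2-fold higher in each, where over all genes 12.4% were lower and 21.5% higher in *spe-9*, and 15.6% lower and 19.6% higher in the double mutant. At Day 10 the double mutant had 66 collagens over 2-fold lower than at Day 0 and 8 higher, against 23.1% and 18.8% of all genes. Part of these counts is set by the minimum of 1 FPKM, since 32 of the 83 reached it as a mean over the Day 0 libraries alone, of which 31 fell, and 5 over the later libraries alone, which are the 5 that rose. Of the 46 that reached it at both times 31 fell, none rose and 15 were not called.

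The largest falls took some of the most abundant collagens to a few FPKM. *col-93*, on chromosome III from 10984514 to 10985485, went from 1281, 1058, 1682 and 1183 FPKM at Day 0 to 1.91, 0.934 and 1.55 FPKM (log2 change -9.43 ± 0.30, SE, limma adjusted p = 0.000235). The Day 0 mean was 613 times the Day 7 value in *spe-9* and 1533 times that value in the double mutant, each against the strain's own Day 0 mean. *col-93* lies between *col-92* and *col-94* in a cluster of 3 collagens, 1386 and 1282 bases from them, and all 3 fell. *col-92* went from 199.7, 168, 341 and 234 FPKM to 0.366, 0.294 and 0.298, and *col-94* from 256, 213, 429 and 294 FPKM to 0.506, 0.374 and 0.443. The reads of these 3 genes did not come out whole within 0.1 read in any library, as happens where reads are divided between near-identical genes, so the split among the 3 is uncertain. *col-124* (1254, 988, 2338 and 1653 FPKM to 3.11, 1.70 and 2.48), *col-80* (927, 841, 1203 and 911 to 2.17, 1.13 and 1.89) and *col-101* (2554, 2328, 2347 and 1889 to 6.63, 3.74 and 3.33) fell too. Their log2 changes were -9.04 ± 0.41, -8.85 ± 0.26 and -8.69 ± 0.17 (SE). *col-20*, with values above, at -9.18, and *col-98*, *col-160* and *col-178*, at -7.83, -7.63 and -7.54, completed the 10 largest falls. *col-124*, *col-80* and *col-101* lie within the spans of *qns-1*, *dph-2* and *drl-1*, with means of 45.9, 29.6 and 3.37 FPKM over the 7 libraries. Low values of these collagens may not be cleanly separated from reads of the spanning genes.

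**Figure D2:**
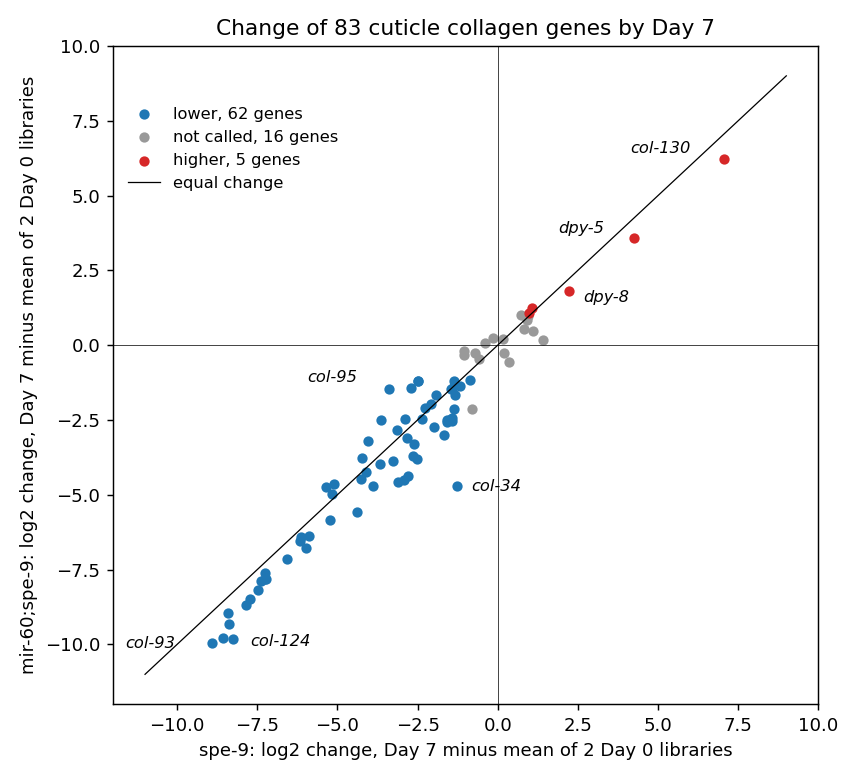
Change of the 83 collagens by Day 7 in *spe-9* (x axis) and in *mir-60;spe-9* (y axis), each as the Day 7 library minus the mean of that strain's 2 Day 0 libraries on the log2(FPKM + 0.5) scale. Points lie along the line of equal change, with 62 genes lower (blue), 5 higher (red) and 16 not called (grey), and *col-34*, listed at 0 in the double mutant at Day 7, stands below it.

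Of the 6 furrow collagens 4 fell, 1 rose and 1 was not called. *dpy-7*, on the X chromosome from 7536607 to 7537742, went from 5.40, 1.98, 15.6 and 6.32 FPKM to 0.0481, 0 and 0.0993 FPKM, that is to 4 reads or fewer in each later library. *dpy-3* (5.84, 2.94, 15.5 and 6.76 FPKM to 0.309, 0.277 and 0.239), *dpy-10* (9.42, 4.81, 22.1 and 10.3 to 0.467, 0.182 and 0.209) and *dpy-2* (4.62, 2.04, 12.05 and 4.59 to 0.635, 0.501 and 0.536) fell too. *dpy-8*, which belongs to the same furrow set, rose: it was at 0.381, 0.225, 0.424 and 0.165 FPKM at Day 0 and at 3.25, 2.25 and 4.78 FPKM later (log2 change 2.02 ± 0.23, SE, limma adjusted p = 0.00271). *dpy-9* lay at 1.61, 0.827, 1.21 and 0.627 FPKM at Day 0 and at 2.68, 1.97 and 3.07 FPKM later, above every Day 0 library, but was not called (log2 change 0.88 ± 0.29, SE, limma adjusted p = 0.0568). The furrow set, whose products are needed for the same structure, thus did not move one way.

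The body shape collagens divided likewise. *sqt-3*, a collagen whose chain is cut by the protease DPY-31, fell from 55.4, 28.4, 138.03 and 59.3 FPKM to 4.16, 3.34 and 3.31 FPKM (log2 change -3.84 ± 0.57, SE, limma adjusted p = 0.00544). *dpy-17*, which is needed for the secretion and function of the SQT-3 chain, fell less, from 73.4, 41.3, 166 and 75.3 FPKM to 21.3, 25.1 and 20.8 FPKM (log2 change -1.74 ± 0.45, SE, limma adjusted p = 0.0286). *dpy-14*, an essential collagen of the embryo and larva, went from 59.7, 25.9, 136 and 59.95 FPKM to 7.22, 15.8 and 11.8 FPKM, a log2 change of -2.42 ± 0.49 (SE). *dpy-5*, loss of which gives short fat animals, rose from 0.245, 0.0861, 0.441 and 0.118 FPKM to 12.1, 8.61 and 11.2 FPKM (log2 change 3.91 ± 0.29, SE, limma adjusted p = 0.000955). The remaining 6 genes of this set (*dpy-4*, *dpy-13*, *rol-6*, *rol-8*, *sqt-1* and *sqt-2*) and the strut collagens *bli-1* and *bli-2* were under the minimum, none reaching 1.2 FPKM in any library.

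Adult-stage collagens were represented by *col-19*, *col-7* and *col-62*. *col-19* was abundant at Day 0, at 1402, 1159, 2025 and 1584 FPKM, and fell to 8.10, 7.41 and 5.23 FPKM (log2 change -7.52 ± 0.20, SE, limma adjusted p = 0.000188). *col-7* (1.85, 1.70, 2.17 and 1.14 FPKM, then 0.607, 1.15 and 0.313) and *col-62* (2.13, 2.15, 2.88 and 1.38, then 0.776, 1.68 and 0.563) were low at all times and not called. Of 5 L4-stage collagens only *col-38* reached the minimum, at 5.34, 5.58, 2.27 and 3.73 FPKM at Day 0 and 3.99, 3.08 and 1.84 FPKM later, and it was not called (log2 change -0.17). Of 3 collagens that long-lived insulin receptor mutants need for their full lifespan, *col-10* fell from 12.6, 10.3, 15.3 and 10.7 FPKM to 0.195, 0.203 and 0.220, and *col-13* from 1.38, 1.70, 3.77 and 2.52 FPKM to 0.182, 0.131 and 0.125. The other, *col-120*, was under the minimum. *col-10* and *col-144* lay within 16.8% of each other in the 4 libraries where both were above 0.3 FPKM, and *col-12* and *col-13* within 13.7%, so reads may be divided between the members of each pair.

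Against this fall, a collagen that was barely detected at Day 0 became the most abundant one in the single Day 10 library. *col-130*, on chromosome IV from 12427523 to 12428474, was at 0.407, 0.510, 1.12 and 0.387 FPKM at Day 0, and reached 127, 89.5 and 534 FPKM in the later libraries. It rose 276-fold in *spe-9* and 118.8-fold in the double mutant by Day 7 (log2 change 6.64 ± 0.34, SE, limma adjusted p = 0.000488). At Day 7 it was behind *col-106* and *col-181* in both strains, and at Day 10 it made up 37.4% of the summed collagen FPKM of the double mutant. *col-130* lies within the span of the glucuronosyl transferase gene *ugt-65*, whose mean over the 7 libraries was 0.404 FPKM. The other genes that rose, *col-64* and *col-86*, are low: *col-64* was at 0.834, 0.768, 0.754 and 0.731 FPKM at Day 0 and 2.24, 2.44 and 2.195 later, and *col-86* at 0.690, 0.547, 0.432 and 0.517, then 1.68, 1.56 and 1.97. Their log2 changes of 1.16 ± 0.14 and 1.02 ± 0.15 (SE) were close to the limit of 2-fold, and both were under it with a pseudocount of 1 or with quantile normalization.

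**Figure D3:**
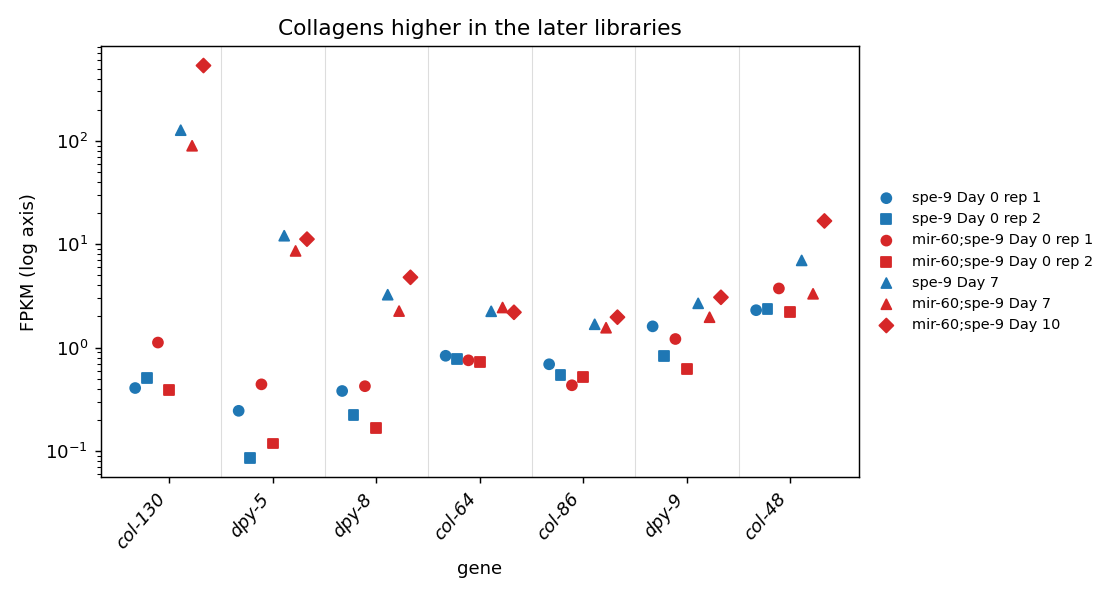
FPKM on a log axis of the 5 collagens that rose by Day 7 and of *dpy-9* and *col-48*, which were not called, in each of the 7 libraries (blue *spe-9*, red *mir-60;spe-9*; circles and squares Day 0 replicates 1 and 2, triangles Day 7, diamonds Day 10). For *col-130*, *dpy-5* and *dpy-8* all 3 later points lie above all Day 0 points, with *col-130* between 89.5 and 534 FPKM later.

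Genes that process collagen mostly did not fall with it. Of 13 processing genes listed 11 were in the Day 7 test, with a median log2 change of 0.01. Among these 1 was called higher and none lower. Over all genes tested 17.6% were called higher and 10.4% lower, which applies to each count of this paragraph. *doxa-1* and *nas-36* were under the minimum for that test. *doxa-1*, at a mean of 0.991 FPKM, read 1.92, 1.35, 1.57 and 1.06 FPKM at Day 0 and 0.401, 0.442 and 0.188 FPKM later. *dpy-18*, a subunit of the prolyl 4-hydroxylase that stabilises collagen chains, was at 24.8, 24.4, 28.3 and 26.1 FPKM at Day 0 and at 43.9, 55.3 and 46.9 FPKM later, under 2-fold (log2 change 0.92, limma adjusted p = 0.00113). Its partner *pdi-2*, a protein disulfide isomerase, lay between 656 and 753 FPKM at Day 0 and between 706 and 776 FPKM later. *phy-3*, another prolyl 4-hydroxylase gene, was the enzyme that rose, from 1.06, 0.768, 0.897 and 1.10 FPKM to 2.12, 2.74 and 3.18 FPKM. Its log2 change of 1.01 ± 0.17 (SE, limma adjusted p = 0.00795) was barely over the limit of 2-fold. Of 4 measured collagens of basement membranes and other matrices 3 fell, among them the type IV chains *emb-9* (59.4, 58.2, 79.9 and 73.2 FPKM to 12.3, 14.9 and 15.7) and *let-2* (84.7, 87.4, 116 and 103 to 12.7, 17.4 and 12.7). *cle-1*, the type XVIII collagen, lay at 15.1 to 19.7 FPKM at Day 0 and 27.7 to 32.2 FPKM later and was not called, its change being under 2-fold. Of 9 non-collagen cuticle genes 5 fell and 1 rose (median -1.42), the apical proteins *noah-1* and *noah-2* among the falls. Of 15 regulators of cuticle genes 2 fell and none rose, where 10.4% of all genes tested fell and 17.6% rose. The 2 regulators that fell were *lon-1* and *blmp-1*. *lon-1*, a target of the body-size TGF-beta pathway, went from 60.5, 58.6, 50.9 and 48.7 FPKM to 7.65, 10.6 and 7.24 FPKM. *blmp-1*, a zinc finger factor, had a log2 change of -1.01.

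Summed levels of marker genes of the tissues were set beside this fall. The 5 hypodermis markers, from the tissue that secretes the cuticle, summed to 88.8 to 95.9 FPKM at Day 0 and to 102, 86.9 and 69.7 FPKM later, most of it from *lin-26*, and none of the 5 was at 0 throughout. Of the 4 of them in the Day 7 test 1 rose (*rnt-1*) and none was called lower, with 2 log2 changes above 0 and 2 below. Those below were *nhr-25* at -0.62 and *elt-3* at -0.35. The other marker, *wrt-2*, was under the minimum for that test, at a mean of 0.684 FPKM over the 7 libraries. It read 0.469, 0.352, 2.81 and 1.004 FPKM at Day 0 and 0.0466, 0.0279 and 0.0801 FPKM later. The sum, mostly *lin-26*, thus does not show the course of each marker. The 6 body wall muscle markers summed to between 1694 and 2306 FPKM at Day 0 and to 242, 325 and 408 FPKM later, with 5 of 6 falling, and the 6 intestine markers to between 232 and 270 FPKM at Day 0 and 63.5, 93.8 and 93.2 FPKM later, with 3 of the 5 tested falling. The 6 neuron markers summed to between 915 and 952 FPKM at Day 0 and to between 1287 and 1525 FPKM later, with none of the 6 called. Most of this sum was *snb-1*, at 851 to 890 FPKM at Day 0 and 1223, 1458 and 1290 FPKM later. Its log2 change was 0.61 and that of *snt-1* 0.39, while those of *unc-119*, *rab-3*, *unc-13* and *ric-4* lay between 0.02 and 0.13. Over all genes tested 10.4% were called lower and 17.6% higher. The part of tissue composition in the collagen fall was not tested.

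The strains were compared at Day 0 to ask how loss of *mir-60* alone changes young adults. No collagen of the 78 with a mean of at least 1 FPKM over the 4 Day 0 libraries passed the limma test at an adjusted p under 0.05 in either direction, where 0.559% of all 13068 genes tested were called higher in the double mutant and 0.184% lower. At an unadjusted p under 0.05 there were 14 higher and 4 lower collagens, or 17.9% and 5.13%, against 10.7% and 4.30% of all genes. The collagens were nevertheless mostly on the higher side in the double mutant: 67 of 78 had a log2 difference above 0, with a median of 0.27 against 0.01 over all genes tested. In 35 of the 78, or 44.9%, both double mutant libraries lay above both *spe-9* libraries, against 27.1% of all genes, and in 4, or 5.13%, both lay below, against 24.5%. The median depended on the libraries: it was 0.08 without double mutant replicate 1, 0.18 without *spe-9* replicate 2, 0.37 without *spe-9* replicate 1 and 0.50 without double mutant replicate 2. The summed collagen FPKM of the strains overlapped (exact permutation test, two-sided, p = 0.667, where the smallest this design allows is 0.333).

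Libraries of the same strain also differed, and in 1 direction for most collagens. Double mutant replicate 1 held the highest of the 4 Day 0 values in 67 of the 78 collagens, or 85.9%, against 35.5% of all genes tested, and *spe-9* replicate 2 held the lowest in 49, or 62.8%, against 36.7%. Replicate 1 was above replicate 2 in both strains for 67 collagens, against 46.2% of all genes. The ratio of the highest to the lowest Day 0 library had a median of 1.74 over the collagens and 1.27 over all genes tested, and it was over 3 for 16 collagens, or 20.5%, against 6.18% of all genes. Among the 10 most abundant collagens the ratio was between 1.13 and 1.19 for *col-181*, *col-184*, *col-122*, *col-119* and *col-106*, and 2.37 for *col-124*.

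**Figure D4:**
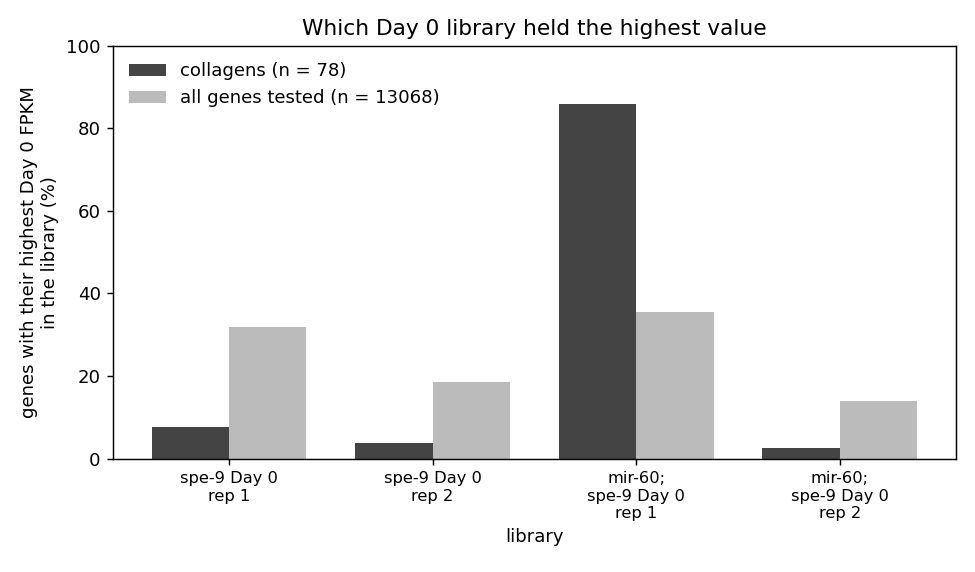
Share of genes whose highest Day 0 value lay in each of the 4 Day 0 libraries, for the 78 collagens tested (dark bars) and all 13068 genes tested (light bars). Double mutant replicate 1 held the highest value of 85.9% of the collagens and of 35.5% of all genes.

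The spread between Day 0 libraries was over 3 for most of the furrow and body shape collagens tested and for some *col-* genes. *dpy-7* at 5.40, 1.98, 15.6 and 6.32 FPKM was 2.72 times higher in replicate 1 than in replicate 2 of *spe-9* and 2.46 times in the double mutant, and its log2 difference between strains was 1.45 ± 0.63 (SE, limma adjusted p = 0.384). *col-121* (3.64, 1.36, 10.9 and 4.33 FPKM) differed by 1.42 ± 0.61, *dpy-3* (values above) by 1.20 ± 0.52, *dpy-14* by 1.19 ± 0.59, *col-74* (2.25, 1.71, 8.44 and 2.98 FPKM) by 1.18 ± 0.52 and *sqt-3* by 1.18 ± 0.55 (SE), none of them called. In each of these 6 genes *spe-9* replicate 1 and double mutant replicate 2 were the middle values, so the strains did not overlap. Yet the gap between their nearest libraries was smaller than that between replicates of the double mutant. Reads of *col-74* may not be cleanly separated from those of ZK1248.13, which spans it and had a mean of 28.8 FPKM. Other orders were seen too: *dpy-8* and *dpy-9* were lowest in double mutant replicate 2, and *col-158* was highest in *spe-9* replicate 1. The libraries at both ends were often the same outside the collagens: of 9 non-collagen cuticle genes with a mean of at least 1 FPKM, 8 were highest in double mutant replicate 1 and 8 lowest in *spe-9* replicate 2. Among them *cut-2*, a cuticlin of the cross-linked cuticle layer, read 6.11, 2.76, 23.6 and 6.42 FPKM, and *noah-2* read 17.2, 9.60, 33.4 and 19.01 FPKM. In the same library all 6 body wall muscle markers, all 5 pharynx markers measured and all 5 measured sperm markers were highest, and none of the 6 germline markers was. Of the hypodermis, intestine and neuron markers measured, 3 of 4, 4 of 5 and 4 of 6 were highest there. The sperm markers summed to 11.4, 9.88, 53.0 and 33.4 FPKM, so they were also higher in both double mutant libraries than in both of *spe-9*. The same held for the sums of the muscle markers (1806, 1694, 2306 and 2097 FPKM) and pharynx markers (56.3, 45.8, 79.7 and 62.4 FPKM). It held by less for the intestine and neuron sums, while the hypodermis and germline sums of the strains overlapped. The part of developmental timing or tissue composition in this order was not tested.

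**Figure D5:**
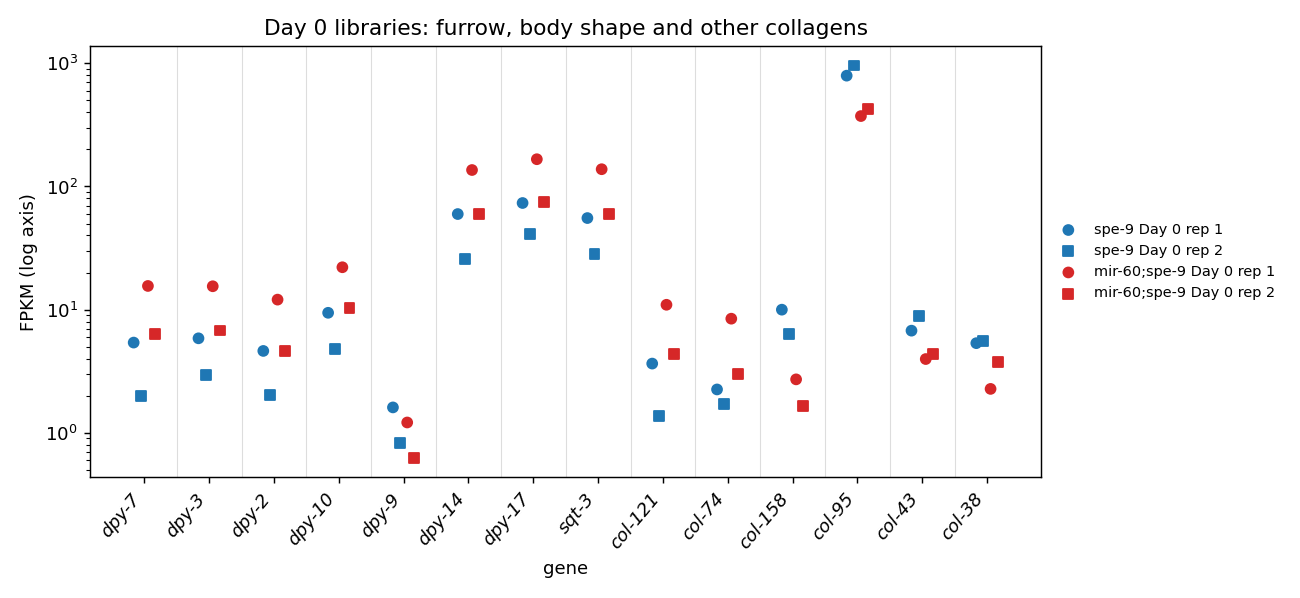
FPKM on a log axis of 14 collagens in the 4 Day 0 libraries (blue *spe-9*, red *mir-60;spe-9*; circles replicate 1, squares replicate 2). From *dpy-7* to *col-74*, *dpy-9* aside, the red circle is highest and the blue square lowest, while both red points lie below both blue points for *col-158*, *col-95*, *col-43* and *col-38*.

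There were 4 collagens whose double mutant libraries both lay below both *spe-9* libraries. *col-95*, on chromosome III from 11703910 to 11704885, is the abundant one, at 794 and 959 FPKM in *spe-9* and 373 and 429 FPKM in the double mutant, means of 876 ± 117 and 401 ± 39.3 (SD, n = 2). Its log2 difference of -1.13 ± 0.13 (SE) had a limma adjusted p of 0.0712, and it was called when the test was limited to genes with a mean of at least 10 FPKM. Its neighbour *col-96*, with 727 bases between them, did not share the direction, at 16.6, 16.98, 24.6 and 27.1 FPKM. *col-158* was at 9.99 and 6.30 FPKM in *spe-9* and 2.71 and 1.64 FPKM in the double mutant, a log2 difference of -1.69 ± 0.33 (SE, limma adjusted p = 0.147), where its first bases overlap the gene D2023.15. *col-43* read 6.74 and 8.86 FPKM against 3.97 and 4.34, and the L4-stage *col-38* read 5.34 and 5.58 FPKM against 2.27 and 3.73, with log2 differences of -0.82 ± 0.18 and -0.80 ± 0.25 (SE). *col-43* was listed at 0 in all 3 later libraries. These 4 genes thus ran against the direction of most collagens at Day 0, without any of them passing the test.

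Whether the day change differed between strains was tested as the interaction of strain and day, in which the spread comes from the Day 0 replicates alone because each Day 7 group is 1 library. Of the 83 collagens 1 was called, *col-34*, lower in the double mutant, and none higher, where 3.30% of all genes were called lower and 0.858% higher. At an unadjusted p under 0.05 the counts were 8 lower and 6 higher, or 9.64% and 7.23%, against 9.44% and 5.19% of all genes. *col-34*, on chromosome IV from 4243579 to 4244580, read 8.29, 8.55, 12.6 and 12.5 FPKM at Day 0 and 3.21, 0 and 4.95 FPKM later (difference of the log2 changes -3.44 ± 0.15, SE, limma adjusted p = 0.00567). The call rests on the value listed at 0 in the double mutant at Day 7, which may be a failed estimate, beside 4.95 FPKM in the same strain at Day 10. It was not made when any 1 Day 0 library was left out, which leaves 1 library in a group. The difference then lay between -3.46 and -3.42. *col-95* had the largest difference the other way, 1.95 ± 0.24 (SE, limma adjusted p = 0.0759): it went from 794 and 959 FPKM to 82.0 in *spe-9* and from 373 and 429 to 145 in the double mutant, so that its order between strains was turned. *col-20* and *col-124*, with differences of -1.21 ± 0.19 and -1.54 ± 0.43 (SE), had lower values in the double mutant at Day 7 and higher means at Day 0, and were not called.

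At Day 7 the strains were compared as 1 library each, with no test. The median log2 difference of the double mutant from *spe-9* was -0.07 over the collagens and -0.01 over all genes. Over 2-fold higher in the double mutant were 4 of 83, or 4.82%, against 4.02% of all genes, and over 2-fold lower 1, or 1.20%, against 5.57%. The higher ones were *dpy-14* (7.22 and 15.8 FPKM), *col-166* (1.22 and 3.36 FPKM) and the pair *col-3* and *col-117* (both 1.39 and 4.38 FPKM), whose values agree within 1.49% in all 7 libraries and count as 1 measurement. The lower one was *col-34* (3.21 and 0 FPKM).

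From Day 7 to Day 10 in the double mutant, again single libraries with no test, 3 collagens were over 2-fold higher and 6 lower, or 3.61% and 7.23% against 4.53% and 5.35% of all genes. *col-130* went from 89.5 to 534 FPKM, *col-48* from 3.31 to 16.8 FPKM and *col-34* from 0 to 4.95 FPKM. *col-48* lies within the span of the kinase gene *mek-2*, whose mean was 56.8 FPKM, and reads of the 2 genes may not be cleanly separated. The largest difference downward was that of *col-184*, from 62.1 to 21.5 FPKM, followed by *col-166*, from 3.36 to 1.06 FPKM. *col-3* and *col-117*, *col-7* and *col-62* were the rest, each a pair of neighbouring genes. *col-166*, *col-3*, *col-117*, *col-7* and *col-62* were all lower in *spe-9* at Day 7 as well, with the double mutant at Day 7 the highest of the 3 later libraries. That library was the highest of the 3 for 33 of the 83 collagens, *spe-9* at Day 7 for 39 and the double mutant at Day 10 for 11. The count for *spe-9* includes *col-43*, which was at 0 in all 3.

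Position in the genome was not used to choose the genes. The 83 lay on all 6 chromosomes, with 22 on IV, 18 on V, 14 on X, 13 on II, 10 on III and 6 on I, and 16 pairs of neighbouring collagens, formed by 29 genes, lay within 10000 bases of each other. In 15 of the 16 pairs both genes fell by Day 7, the exception being *col-7* and *col-62*. Of all 83 taken singly 74.7% fell, which is a share of genes and no matching base for pairs. Some pairs also share a gene, and reads may be divided within others such as *col-3* and *col-117*. Neighbours could differ widely in level all the same: *col-95* had a Day 0 mean of 639 FPKM and *col-96* of 21.3 FPKM. *dpy-10* and *dpy-2*, furrow collagens 2425 bases apart on chromosome II, kept the same order over the 4 Day 0 libraries except that *spe-9* replicate 1 and double mutant replicate 2 changed places in *dpy-2*.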

How the data were processed

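Poly(A) RNA of whole animals was sequenced from 7 libraries, each in 2 runs that were merged before deposit. The deposited values are FPKM per RefSeq transcript for 49823 transcripts. According to the labels and methods the authors prepared stranded single-end libraries and used Cufflinks 2.2.1 to compute FPKM from alignments that TopHat 2.1.0, running Bowtie 2.1.0, had made to WS220. How reads shared by similar genes were divided, and whether strand was used, is not given in the sources used here.

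FPKM was summed per gene symbol and analysed as log2(FPKM + 0.5) with limma 3.58.1 (R 4.3.3), with a trended prior and Benjamini-Hochberg adjustment over all genes tested. The prior lends spread to fits with only 2 or 3 residual degrees of freedom. Fold changes on this scale understate those of low genes. The strain test used the 4 Day 0 libraries and genes with a mean of at least 1 FPKM over them. The Day 7 test used strain and day over 6 libraries and genes with a mean of at least 1 FPKM over all 7, and the interaction used the same genes. A call needed an adjusted p under 0.05 and, for the day, over 2-fold. Comparisons of single libraries have no test. Genes were named by rule: the 10 highest means, every member that is no *col-* gene, the *col-* genes of the role lists, per comparison the called members up to 10 each way or else the 6 largest changes each way, and members at 0 in a library and at 10 FPKM or more in another. *col-96*, *col-99* and the genes named from the lists of enzymes, other collagens, cuticle proteins, regulators and markers were picked after their values were seen. The members and lists were chosen with earlier results of these data known. The smallest step of the values gave whole reads, within 0.1 read, for 94.8% to 95.3% of low values, which shows depth but not the split between similar genes. Alternatives were other pseudocounts and minima, median centring, quantile normalization, 1 transcript per gene, no variance trend, other sets of libraries, a replicate block, leaving out each library, and, chosen after seeing the data, only genes of at least 200 bases. The fits were also run on simulated data, with noise drawn independently for each gene and library. That setting does not cover genes that shift together between libraries, as the collagens did at Day 0. The libraries of a strain at Day 0 are separate RNA preparations, so p-values of the strain test and of the interaction measure the spread between these. Those of the Day 7 test also take in how far the day change differed between strains, each with 1 library at Day 7.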

Additional observations from a re-analysis of the deposited data

Results flagged for a closer look

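*col-34* stands apart because its change from Day 0 to Day 7 differed between the strains, by -3.44 on the log2 scale (limma adjusted p = 0.00567). Its level went from 8.29 and 8.55 FPKM to 3.21 FPKM in *spe-9*, about 123 reads, and from 12.6 and 12.5 FPKM to a value listed at 0 in the double mutant. At Day 10 the double mutant was at 4.95 FPKM, about 184 reads, so the 0 at Day 7 may be a failed estimate. The call was lost when any 1 Day 0 library was left out, which leaves 1 library in a group. The difference itself then lay between -3.46 and -3.42. The size of the difference depends on the pseudocount, being -5.62 with 0.1 and -2.60 with 1.

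*col-99* was picked after its values were seen, because its strains moved in opposite directions. It read 3.00 and 2.11 FPKM at Day 0 and 3.33 FPKM at Day 7 in *spe-9*, against 5.13 and 3.19 FPKM and then 2.57 FPKM in the double mutant. The interaction of -0.91 on the log2 scale did not pass the test (limma adjusted p = 0.545).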

How the results depend on the processing

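Of the values with a count or a test behind a comparison, 80 were within 1.5 times of those reported under the alternatives and 30 were not. For single genes 570 kept direction and call, 23 gained a call, 12 lost it and 3 changed sign. The changed signs were *col-116* between strains at Day 0 (-0.29, and from -0.60 to 0.026 with a library left out, the latter without *spe-9* replicate 1) and *dpy-9* (-0.27, and from -0.60 to 0.065, above 0 without *spe-9* replicate 1 and, at 0.034, without double mutant replicate 2). At Day 0 leaving out any 1 library leaves 1 library in a group, so the absence of calls there decides nothing. With a minimum of 10 FPKM, and with genes of at least 200 bases alone, 1 was called lower, *col-95*. By Day 7 leaving out 1 library gave 4 to 6 higher and 49 to 60 lower, a minimum of 10 FPKM gave 1 higher and 33 lower because fewer collagens were tested, and 3 were higher with a pseudocount of 1 and with quantile normalization. *col-86* was not called with a pseudocount of 1, median centring, quantile normalization, or without *spe-9* Day 0 replicate 2, double mutant Day 0 replicate 1 or the double mutant Day 7 library. For the interaction, leaving out a Day 0 library also leaves 1 library in a group. The call of *col-34* was lost there, with its difference between -3.46 and -3.42. The lower count of the interaction was 0 with a minimum of 10 FPKM. It was 2 with median centring, quantile normalization or genes of at least 200 bases, *col-20* being the addition in the last. The higher count was 1 under these 4 settings. At Day 7 quantile normalization gave 12 collagens over 2-fold higher in the double mutant, and a pseudocount of 0.1 gave 3 lower. From Day 7 to Day 10 the lower count was 11 with a pseudocount of 0.1 and 2 with a pseudocount of 1, median centring or quantile normalization. The cause of these changes, other than fewer genes tested, was not tested.

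Replicates share only a number across strains. The deviations of replicate 1 from the strain means correlated at 0.08 over all genes and 0.59 over the 78 collagens, from 2 pairs. A block takes 1 residual degree of freedom from the Day 0 strain fit and from the interaction fit, which had only 2 each without it. With the replicate number as a block, 7 collagens were called higher at Day 0 (*dpy-14*, *dpy-7*, *col-142*, *dpy-10*, *col-124*, *col-121* and *sqt-3*) and 2 lower (*col-95* and *col-158*), where 2.19% and 0.520% of all genes were. Limiting that block fit to transcripts of 200 bases or more gave 26 and 3, against 11.9% and 2.12% of all genes. With the block the interaction gave 1 higher and 2 lower, and by Day 7 the block gave 62 lower, with *col-121* gained and *col-34* lost. Low genes are limited by depth, as 1 FPKM on a 900-base transcript is 33.96 to 42.8 reads.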
